A study of Mus musculus with 6 samples.

Results

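The genes described here encode the enzymes that cut and crosslink the extracellular matrix and the inhibitors that restrain them: matrix metalloproteinases (Mmp), tissue inhibitors of metalloproteinases (Timp), secreted proteases with thrombospondin motifs (Adamts), their protease-less relatives (Adamtsl) and lysyl oxidases (Lox, Loxl). Members were all genes whose symbols belong to these families, and 56 of the 24062 genes in the count tables matched. Of these, 39 reached 5 CPM (read counts scaled to library size) in at least 1 of 6 RNA-seq libraries and 17 reached it in none.

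Dorsal pancreatic buds were taken from mouse embryos and dissociated, cells were sorted by Tomato and GFP fluorescence, and the frozen sorted fractions were pooled before RNA was purified. There was 1 pooled library for each of 6 groups: epithelium at embryonic day (E) 12.5, mesenchyme at E12.5 and epithelium at E14.5, each from control and from mutant embryos. The control genotype is labelled mTmG, a reporter that switches from Tomato to GFP where Cre recombinase acts. How the reporter alone gave GFP cells is not stated in the labels. The mutant genotype includes mTmG+/-, Nkx2.5-Cre+/-, in which Cre is driven by Nkx2-5, and Pbx2+/-, in which 1 copy of Pbx2 is mutant. It also carries a further altered gene. Reporter and sort are shared by all groups, and only the labels of the mutant groups name Cre.

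The extracellular matrix is laid down mainly by mesenchymal cells and is remodelled as the pancreatic bud grows and branches. Metalloproteinases of the Mmp family are made as inactive precursors, cut collagens and other matrix proteins, and are held in check by Timp proteins, which bind the active site. Adamts proteases trim procollagens, cleave the large proteoglycans versican and aggrecan, or act on fibrillin microfibrils, while lysyl oxidases crosslink collagen and elastin into stable fibres.

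With 1 library per group no single ratio has a replicate check, and the ratios carry no p-values. A fit that pools all 6 libraries is given at the end of the comparisons. A ratio sets 1 library against another, and its 95% interval covers only counting error, since the reads carry no molecular identifiers. To be called higher or lower, a gene needed a ratio of 2-fold or more, an interval without 1, and 5 CPM in one or both of the libraries compared. The 6 libraries held 14032569 to 20276045 counts on genes, which puts the floor of 3 counts at 0.141 to 0.215 CPM. The table of the E12.5 control epithelium bears another date in its name than the other 5, so a batch and that group cannot be told apart in the comparisons that use it. In these bulk samples, fewer cells of a type and less RNA per cell cannot be told apart.

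The sorted fractions were checked against 28 general mesenchymal and 25 general epithelial genes. Summed epithelial genes stood at 3968 to 8308 CPM in the 4 epithelial libraries and at 253 and 208 CPM in the mesenchymal ones, where Cldn4, Rab25 and Marveld3 had no read in either. Summed mesenchymal genes stood at 12688 and 11088 CPM in mesenchyme and were also present in epithelium, at 5945 and 6868 CPM at E12.5 and at 6463 and 13221 CPM at E14.5 (control first). The epithelial libraries therefore held RNA of mesenchymal genes throughout, and most in the E14.5 library labelled mutant. Pbx2 stood at 89.9 CPM in control and 56.0 CPM in mutant mesenchyme, but at 54.5 and 49.7 CPM in E12.5 epithelium and 34.04 and 47.3 CPM in E14.5 epithelium. The 2 epithelial libraries of the mutant are therefore called mutant-labelled, and every direction drawn from them rests on that label.

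Promoter sequences are shown for 6 members because they set 4 expressed genes beside 2 from a gene cluster that was nearly silent. RefSeq (GRCm38.p6, the same assembly as mm10) gave a window for 37 of the 56 members. Each sequence is the 250 bases before the annotated transcription start, written 5′ to 3′ on the gene's own strand, with capitals at matches to 5 motifs. All were searched on both strands, with N for any base. GGGCGG is the box of the Sp1 family. TATAAA is the TATA box. AP-1, the Fos and Jun dimer, was searched as TGANTCA. Pbx-Hox pairs were searched as TGATNNAT. Meis proteins were searched as TGACAG. A match describes letters and is not a binding site.
Adamts1 (chr16:85803114-85803363, minus strand): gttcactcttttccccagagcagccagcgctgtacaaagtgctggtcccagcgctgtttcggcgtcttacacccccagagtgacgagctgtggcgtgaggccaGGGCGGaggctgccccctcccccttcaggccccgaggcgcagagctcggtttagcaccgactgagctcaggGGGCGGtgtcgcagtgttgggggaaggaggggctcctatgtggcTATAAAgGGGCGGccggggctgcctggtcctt
Adamts2 (chr11:50601835-50602084, plus strand): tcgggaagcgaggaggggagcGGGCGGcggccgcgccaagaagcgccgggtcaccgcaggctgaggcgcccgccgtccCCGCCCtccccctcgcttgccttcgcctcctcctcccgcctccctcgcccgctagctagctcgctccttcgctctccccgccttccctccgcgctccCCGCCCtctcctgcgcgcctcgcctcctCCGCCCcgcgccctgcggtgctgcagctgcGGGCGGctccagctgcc
Mmp14 (chr14:54431348-54431597, plus strand): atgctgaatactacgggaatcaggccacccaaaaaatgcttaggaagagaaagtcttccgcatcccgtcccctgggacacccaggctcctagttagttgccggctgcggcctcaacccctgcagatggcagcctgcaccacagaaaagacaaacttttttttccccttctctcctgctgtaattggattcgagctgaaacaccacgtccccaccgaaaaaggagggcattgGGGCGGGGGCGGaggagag
Timp3 (chr10:86300162-86300411, plus strand): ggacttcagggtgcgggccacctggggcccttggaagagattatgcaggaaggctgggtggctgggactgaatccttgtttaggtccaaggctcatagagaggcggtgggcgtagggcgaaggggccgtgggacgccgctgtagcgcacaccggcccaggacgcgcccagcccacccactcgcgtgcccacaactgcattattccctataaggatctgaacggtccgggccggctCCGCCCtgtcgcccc
Mmp3 (chr9:7445572-7445821, plus strand): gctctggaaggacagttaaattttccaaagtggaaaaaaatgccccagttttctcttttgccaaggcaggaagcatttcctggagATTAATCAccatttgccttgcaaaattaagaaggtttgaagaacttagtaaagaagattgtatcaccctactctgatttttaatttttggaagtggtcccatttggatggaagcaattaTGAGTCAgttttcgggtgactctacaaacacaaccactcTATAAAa
Mmp13 (chr9:7272264-7272513, plus strand): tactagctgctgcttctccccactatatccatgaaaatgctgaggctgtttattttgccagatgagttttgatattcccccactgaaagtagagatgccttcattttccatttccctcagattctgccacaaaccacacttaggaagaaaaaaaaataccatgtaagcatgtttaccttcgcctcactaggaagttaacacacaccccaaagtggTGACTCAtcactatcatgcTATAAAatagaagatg

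The upper 4 genes were expressed at 16.9 CPM or more in every library, and their windows hold 1 to 5 copies of GGGCGG or its complement. Mmp3, a stromelysin, and Mmp13, a collagenase, stayed at or below 0.197 CPM in every library. Their windows hold no GGGCGG, but each holds 1 AP-1 heptamer, TGAGTCA at 46 bases before the start of Mmp3 and TGACTCA at 35 bases before that of Mmp13, and 1 TATAAA. Across members with a window, GGGCGG occurred in 16 of 20 that reached 5 CPM and in 5 of 17 that did not. That contrast follows a cluster of Mmp genes on chromosome 9, where GGGCGG occurred in 0 of 10 windows against 21 of 27 for the other members, and 5 of those 21 genes were under 5 CPM in all libraries. The letters therefore do not separate expressed from nearly silent members outside the cluster. The AP-1 letters occurred in 8 of the 10 and in 0 of the 27. Over all 32851 windows in the RefSeq table, the Sp1 letters were found in 32.7%, TATA in 12.4%, AP-1 in 6.75%, Pbx-Hox in 7.68% and Meis in 15.9%. Of the 40 windows of members, 52.5%, 25%, 20%, 10% and 22.5% held them in the same order. Mmp3 was the only gene of the 6 shown with Pbx-Hox letters, ATTAATCA at 165 bases before its start, and none of the 6 held the Meis letters.

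All 8 members with AP-1 letters lie in 1 cluster on chromosome 9 (chr9:7272514-7699585, mm10), which holds 10 Mmp genes in the order Mmp13, Mmp12, Mmp1b, Mmp3, Mmp1a, Mmp10, Mmp8, Mmp27, Mmp20 and Mmp7. This cluster encodes the classical secreted collagenases, stromelysins, matrilysin and macrophage elastase. Mmp8, the neutrophil collagenase, was the only gene of the cluster to reach 5 CPM in any library, and none of the other 9 exceeded 1.29 CPM, the level of Mmp7 in the mutant-labelled E14.5 epithelium. Mmp1a had no read in any library. The remaining members under 5 CPM everywhere were Adamts13, Adamts14, Adamtsl3, Loxl4, Mmp21, Mmp24, Mmp25 and Timp4, and none of them exceeded 3.42 CPM in any library, the level of Mmp24 in the E14.5 control epithelium.

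**Figure D1:**
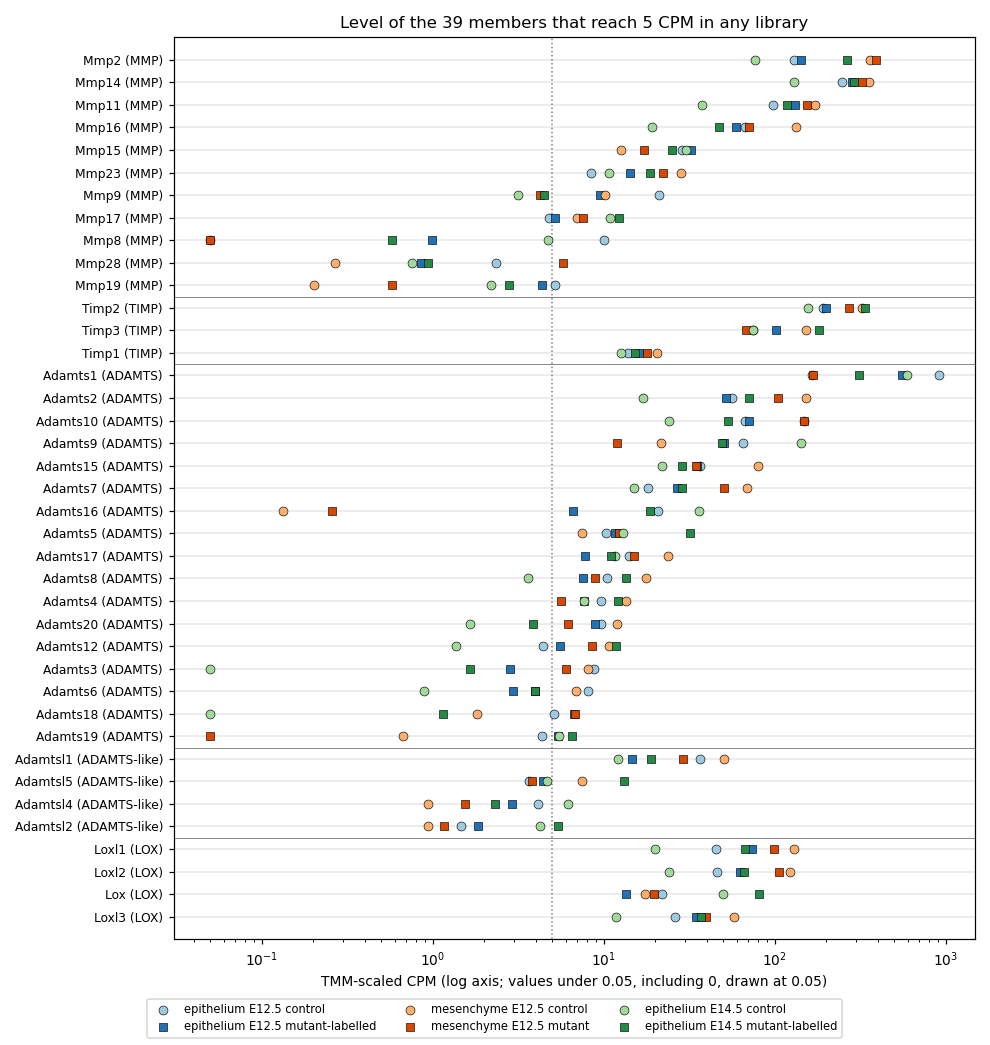
TMM-scaled CPM (log axis) of the 39 members that reached 5 CPM in any library, grouped by family, with 1 point for each of the 6 libraries (circles control, squares mutant) and values under 0.05, including 0, drawn at 0.05. Mesenchymal points lie to the right for Mmp2 and Adamts10 and to the left for Adamts1, Adamts9 and Adamts16, and the dotted line marks 5 CPM.

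The control mesenchyme held the highest level of 16 of the 39 members and the mutant-labelled E14.5 epithelium that of 9. The E14.5 control epithelium held the lowest level of 21. These counts were not made over all genes, so whether they are particular to the members is not known. Levels below are CPM scaled by TMM (a scaling factor per library), with the control before the mutant in each pair.

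Per kb of exon, Mmp2, Mmp11 and the membrane-anchored Mmp14 were the most abundant metalloproteinases in all 6 libraries, at 107, 61.5 and 59.3 CPM per kb in control mesenchyme. Mmp2, the gelatinase that degrades type IV collagen (chr8:92827291-92853420), stood at 129 and 142 CPM in E12.5 epithelium, 360.3 and 389.6 CPM in mesenchyme and 76.7 and 266 CPM in E14.5 epithelium. Both mesenchymal libraries lay above all 4 epithelial ones, and Mmp2 was 2.78-fold higher (interval 2.66 to 2.92) in mesenchyme among controls and 2.74-fold higher (interval 2.61 to 2.88) among mutants. In E14.5 epithelium it was 3.46-fold higher (interval 3.24 to 3.71) in the mutant-labelled library, while in mesenchyme the mutant and control differed by less than 2-fold. Mmp14, which activates the Mmp2 precursor at the cell surface together with Timp2 (chr14:54431612-54445364), stood at 246 and 283 CPM in E12.5 epithelium, 354 and 324 CPM in mesenchyme and 129 and 292 CPM in E14.5 epithelium. Its range across libraries was narrower, and the E14.5 genotype ratio, 2.27-fold higher (interval 2.15 to 2.40), was its only call.

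Mmp11, stromelysin-3, a protease typical of stromal cells, stood at 97.3 and 132 CPM in E12.5 epithelium, 171 and 154 CPM in mesenchyme and 37.4 and 118 CPM in E14.5 epithelium. It was lowest in the E14.5 control epithelium, 2.60-fold lower (interval 2.37 to 2.86) than at E12.5, and 3.17-fold higher (interval 2.87 to 3.50) in the mutant-labelled library at E14.5. Mmp16, another membrane-type enzyme, stood at 66.7 and 59.1 CPM in E12.5 epithelium, 133 and 70.9 CPM in mesenchyme and 19.2 and 47.3 CPM in E14.5 epithelium. It was also lowest in the E14.5 control epithelium, being 3.48-fold lower (interval 3.06 to 3.97) between stages in controls and 2.46-fold higher (interval 2.14 to 2.84) between genotypes at E14.5. In mesenchyme Mmp16 was lower in the mutant, by 1.88-fold, short of the 2-fold call. Mmp15, a membrane-type enzyme, went the other way between fractions, at 28.9 and 32.5 CPM in E12.5 epithelium, 12.6 and 17.2 CPM in mesenchyme and 30.4 and 25.2 CPM in E14.5 epithelium, and was 2.29-fold lower (interval 1.94 to 2.71) in control mesenchyme.

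Mmp23, an unusual family member that lacks the hemopexin domain, stood at 8.38 and 14.3 CPM in E12.5 epithelium, 28.4 and 22.1 CPM in mesenchyme and 10.7 and 18.5 CPM in E14.5 epithelium. Its control mesenchyme was 3.38-fold higher (interval 2.83 to 4.05) than control epithelium. Mmp17, a membrane enzyme held by a lipid anchor, stood at 4.80 and 5.19 CPM in E12.5 epithelium, 6.98 and 7.52 CPM in mesenchyme and 10.9 and 12.3 CPM in E14.5 epithelium. Both E14.5 libraries exceeded all 4 E12.5 ones, and stood above E12.5 epithelium by 2.27-fold in controls and 2.37-fold in mutants. Mmp19 was at low level and higher in the epithelial libraries at E12.5, with 5.18 and 4.34 CPM in E12.5 epithelium against 0.201 and 0.579 CPM in mesenchyme, the latter from 3 and 9 counts. Mmp28, epilysin, stood at 0.268 CPM (4 counts) in control and 5.79 CPM (90 counts) in mutant mesenchyme, 21.6-fold higher (interval 8.14 to 80.9). In the 4 epithelial libraries it lay between 0.753 and 2.35 CPM, so the mutant mesenchyme was its highest library. Exons of other genes on the opposite strand cover 22.3% of the exon length of Mmp19 (Tmem198b), 12.03% of Mmp28 (1700020L24Rik) and 5.58% of Mmp11 (Chchd10), so reads of these pairs may not be told apart.

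Mmp8 and Mmp9 are stored in granules of neutrophils, and Mmp9 is also made by macrophages. Mmp8 stood at 10.1 and 0.986 CPM in E12.5 epithelium and 4.73 and 0.575 CPM in E14.5 epithelium, with no read in either mesenchymal library. It was 10.2-fold lower (interval 6.06 to 18.6) in the mutant-labelled library at E12.5 and, at the floor of 3 counts, 50.1-fold lower in control mesenchyme. Of 11 neutrophil granule genes, 9 and 8 had no read in control and mutant mesenchyme, Ltf, Ngp, Camp and S100a9 among them. Their sum was 247 and 122 CPM in E12.5 epithelium, 4.43 and 6.37 CPM in mesenchyme and 214 and 20.8 CPM in E14.5 epithelium. The 4 epithelial libraries come in the same order by Mmp8 and by this sum, with mesenchyme last by both, and the part of neutrophil RNA in the Mmp8 ratios was not tested. Mmp9 stood at 21.1 and 9.53 CPM in E12.5 epithelium, 10.2 and 4.24 CPM in mesenchyme and 3.15 and 4.45 CPM in E14.5 epithelium. It was lower in the mutant in both E12.5 comparisons, 2.22-fold lower (interval 1.84 to 2.70) in epithelium and 2.40-fold lower (interval 1.79 to 3.26) in mesenchyme. Over the same pairs, the summed level of 18 macrophage and other leukocyte genes was 608 and 395 CPM in epithelium and 107 and 50.0 CPM in mesenchyme, with none of the 18 at 0, and its part in the Mmp9 ratios was not tested.

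Among the inhibitors, Timp2 carried 62.6% to 70.8% of the summed Timp level per kb of exon in all 6 libraries. Timp2 stood at 191 and 200.1 CPM in E12.5 epithelium, 324 and 271 CPM in mesenchyme and 156 and 336 CPM in E14.5 epithelium. The mutant-labelled E14.5 epithelium was close to control mesenchyme in level, and was 2.15-fold higher (interval 2.05 to 2.27) than the E14.5 control epithelium. Timp1 stayed between 12.7 and 20.5 CPM and was called in no comparison. Timp4 did not exceed 0.575 CPM. Timp3, which binds to the matrix and also inhibits Adamts proteases (chr10:86300372-86349506, promoter above), stood at 74.8 and 102 CPM in E12.5 epithelium, 153 and 68.1 CPM in mesenchyme and 74.2 and 180.4 CPM in E14.5 epithelium. Its genotype ratio was 2.24-fold lower (interval 2.08 to 2.41) in mesenchyme but 2.43-fold higher (interval 2.26 to 2.61) in E14.5 epithelium, and the difference between these ratios was not tested. Exons of Syn3 on the other strand cover 21.3% of the exon length of Timp3, and whether counting used strand is not given in the sources used here.

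Per kb of exon, the summed Timp level was 0.506 of the summed Mmp level in both E12.5 epithelial libraries, 0.478 and 0.391 in control and mutant mesenchyme, and 0.828 and 0.644 in control and mutant-labelled E14.5 epithelium. The E14.5 control epithelium thus had the most inhibitor transcript relative to protease transcript. Its Mmp sum was the lowest, at 76.7 CPM per kb against 262 CPM per kb in control mesenchyme. The Timp sum moved less, from 63.5 CPM per kb in the E14.5 control epithelium to 126 CPM per kb in the mutant-labelled one.

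**Figure D2:**
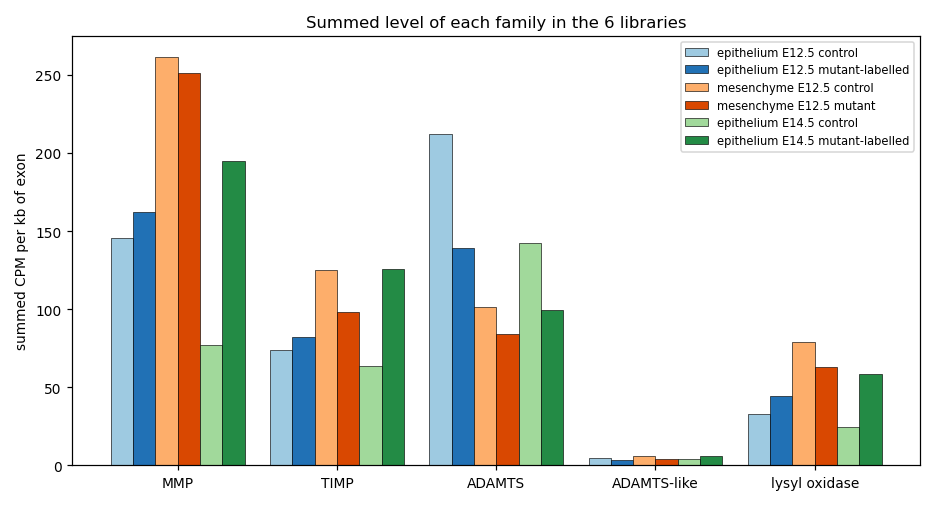
Summed CPM per kb of exon for each family (bars start at 0), with 1 bar for each of the 6 libraries and no error bar since each group is 1 library. Mmp, Timp and lysyl oxidase sums are lowest in the E14.5 control epithelium, while the Adamts sum is highest in the E12.5 control epithelium.

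Adamts1 was the most abundant Adamts gene per kb of exon in all 6 libraries. Adamts1, which cleaves versican and aggrecan (chr16:85793827-85803113, promoter above), stood at 909 and 552 CPM in E12.5 epithelium, 165 and 168 CPM in mesenchyme and 592 and 312 CPM in E14.5 epithelium. At 171 CPM per kb in the E12.5 control epithelium it was the most abundant member per kb of exon in that library, and it made up 80.9% of the summed Adamts level there against 30.7% in control mesenchyme. All 4 epithelial libraries exceeded both mesenchymal ones, and Adamts1 was 5.52-fold lower (interval 5.29 to 5.75) in mesenchyme among controls and 3.28-fold lower (interval 3.14 to 3.43) among mutants. Within epithelium it was lower in the mutant-labelled library at both stages, by 1.65-fold at E12.5 and 1.90-fold at E14.5, both short of the 2-fold call.

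Adamts9, another versican-cleaving enzyme, stood at 65.2 and 50.7 CPM in E12.5 epithelium, 21.7 and 12.03 CPM in mesenchyme and 143 and 49.3 CPM in E14.5 epithelium. It was 3.01-fold lower (interval 2.66 to 3.41) in control mesenchyme than in control epithelium, and 2.90-fold lower (interval 2.66 to 3.17) in the mutant-labelled E14.5 epithelium. Adamts16 had almost no counts in mesenchyme, with 20.6 and 6.57 CPM at E12.5 and 36.03 and 18.7 CPM at E14.5 against 0.134 and 0.257 CPM in mesenchyme (2 and 4 counts). Its fraction ratio was 154-fold lower (interval 42.3 to 1274) among controls and 25.5-fold lower (interval 9.67 to 95.6) among mutants, and in E12.5 epithelium it was 3.14-fold lower (interval 2.52 to 3.94) in the mutant-labelled library. Adamts19 was also higher in the epithelial libraries, at 4.38 to 6.54 CPM there against 0.671 CPM in control mesenchyme and no read in mutant mesenchyme. The floor of 3 counts puts the mutant mesenchyme 27.9-fold lower than mutant-labelled epithelium.

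Of the procollagen-trimming enzymes, Adamts2, which removes the amino-terminal propeptide of fibrillar procollagens (chr11:50602084-50807573, promoter above), stood at 56.6 and 52.0 CPM in E12.5 epithelium, 153 and 104 CPM in mesenchyme and 16.9 and 71.0 CPM in E14.5 epithelium. The mesenchymal libraries were highest and the E14.5 control epithelium lowest. At E14.5 Adamts2 was 4.19-fold higher (interval 3.64 to 4.84) in the mutant-labelled library. Adamts3, its close relative, stood at 8.81 and 2.83 CPM in E12.5 epithelium and 8.12 and 5.98 CPM in mesenchyme. It had no read in the E14.5 control epithelium, 42.9-fold lower than at E12.5 at the floor of 3 counts, and 1.65 CPM in the mutant-labelled one. Adamts14 reached at most 3.41 CPM.

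Adamts10 and Adamts6, both linked to fibrillin microfibrils, differed in level and pattern. Adamts10 stood at 67.1 and 70.7 CPM in E12.5 epithelium, 148 and 149 CPM in mesenchyme and 24.2 and 53.1 CPM in E14.5 epithelium. Control and mutant mesenchyme were alike within counting error, and both fraction comparisons called it higher, by 2.204-fold and 2.11-fold. Adamts6 stood at 8.05 and 2.96 CPM in E12.5 epithelium, 6.91 and 3.99 CPM in mesenchyme and 0.89 and 3.95 CPM in E14.5 epithelium, and was 2.72-fold lower (interval 1.95 to 3.87) in the mutant-labelled E12.5 epithelium. Adamts7 and Adamts12, which cleave cartilage oligomeric matrix protein, were both highest in control mesenchyme among the E12.5 libraries. Adamts7 stood at 18.2 and 26.9 CPM in E12.5 epithelium, 68.9 and 50.3 CPM in mesenchyme and 15.1 and 28.7 CPM in E14.5 epithelium, and was 3.78-fold higher (interval 3.36 to 4.26) in control mesenchyme. Adamts12 stood at 4.43 and 5.58 CPM in E12.5 epithelium, 10.7 and 8.55 CPM in mesenchyme and 1.37 and 11.8 CPM in E14.5 epithelium. Its E14.5 genotype ratio, 8.65-fold higher (interval 5.42 to 14.53), rests on 20 counts in the control against 165, and was the largest E14.5 genotype ratio among the members.

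The remaining proteoglycan-cleaving Adamts genes were Adamts15, Adamts8, Adamts4, Adamts5 and Adamts20. Adamts15 stood at 36.5 and 35.0 CPM in E12.5 epithelium, 79.7 and 34.6 CPM in mesenchyme and 21.8 and 28.9 CPM in E14.5 epithelium, so that the control mesenchyme stood apart from the other 5 libraries. Its level was 2.30-fold lower (interval 2.08 to 2.56) in mutant mesenchyme. Adamts8, whose gene lies 20110 bases from Adamts15 on chromosome 9, stood at 10.5 and 7.56 CPM in E12.5 epithelium, 17.6 and 8.94 CPM in mesenchyme and 3.63 and 13.6 CPM in E14.5 epithelium. In mesenchyme Adamts8 was lower in the mutant by 1.97-fold, just short of the call, and at E14.5 it was 3.74-fold higher (interval 2.74 to 5.17) in the mutant-labelled library. Adamts5, the neighbour of Adamts1 on chromosome 16 at 53060 bases, stood at 10.4 and 11.6 CPM in E12.5 epithelium, 7.51 and 12.3 CPM in mesenchyme and 13.01 and 31.9 CPM in E14.5 epithelium. The neighbours differed in direction at E14.5, where Adamts5 was 2.45-fold higher (interval 2.06 to 2.92) in the mutant-labelled epithelium. Adamts4 stood at 9.61 and 7.69 CPM in E12.5 epithelium, 13.4 and 5.66 CPM in mesenchyme and 7.67 and 12.1 CPM in E14.5 epithelium, and was 2.37-fold lower (interval 1.84 to 3.08) in mutant mesenchyme. Adamts20 was 5.84-fold lower (interval 3.82 to 9.33) at E14.5 in controls and 2.30-fold lower (interval 1.67 to 3.22) in mutants. Adamts18 reached 1.81 CPM in control and 6.75 CPM in mutant mesenchyme, 3.73-fold higher (interval 2.42 to 5.92), and was nearly absent from E14.5 epithelium, with 1.15 CPM in the mutant-labelled library and no read in its control. Adamts17 ranged from 7.82 to 23.9 CPM and was called in no comparison.

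The Adamtsl proteins lack the protease domain and bind to matrix fibres. Adamtsl1 stood at 36.4 and 14.6 CPM in E12.5 epithelium, 50.6 and 29.3 CPM in mesenchyme and 12.1 and 18.9 CPM in E14.5 epithelium, and was 2.49-fold lower (interval 2.14 to 2.91) in the mutant-labelled E12.5 epithelium. Adamtsl5 was highest in the mutant-labelled E14.5 epithelium, 13.1 CPM against 4.66 CPM in its control, 2.82-fold higher (interval 2.12 to 3.78). Adamtsl4 went the other way in the same pair, from 6.16 to 2.30 CPM, 2.68-fold lower (interval 1.77 to 4.15). Adamtsl2 was at most 5.39 CPM.

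Of the lysyl oxidases, Loxl1, Loxl2 and Loxl3 shared a pattern that Lox did not. Loxl1, which acts on elastic fibres, stood at 45.6 and 73.1 CPM in E12.5 epithelium, 130.3 and 98.4 CPM in mesenchyme and 20 and 67.1 CPM in E14.5 epithelium. Loxl2, which acts on type IV collagen of basement membranes, stood at 46.1 and 62.7 CPM in E12.5 epithelium, 123 and 106 CPM in mesenchyme and 24.0 and 66.1 CPM in E14.5 epithelium. Loxl3 stood at 26.1 and 34.6 CPM in E12.5 epithelium, 57.9 and 39.8 CPM in mesenchyme and 11.8 and 37.1 CPM in E14.5 epithelium. All of these were highest in control mesenchyme, with ratios over control epithelium of 2.86-fold, 2.68-fold and 2.22-fold, and lowest in the E14.5 control epithelium, with genotype ratios at E14.5 of 3.36-fold, 2.75-fold and 3.15-fold. Lox, the founding enzyme of the family, stood instead at 21.9 and 13.5 CPM in E12.5 epithelium, 17.5 and 19.5 CPM in mesenchyme and 50.1 and 81.3 CPM in E14.5 epithelium. It was higher at E14.5 than at E12.5 in both genotypes, 2.29-fold higher (interval 2.04 to 2.58) in controls and 6.01-fold higher (interval 5.17 to 7.002) in mutants, and its fraction ratio among controls was below 2-fold. Exons of Htra2 on the other strand cover 11.6% of the exon length of Loxl3.

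Between mesenchyme and epithelium of control embryos at E12.5, a larger share of the members than of all genes was called in both directions. Of 35 members measured, meaning 5 CPM in one or both of the libraries compared, 12 were higher in mesenchyme (34.3%) and 8 lower (22.9%). Over all 12066 genes measured, 7.0% were higher and 13.6% lower. The median log2 ratio was 0.57 for the members against 0.03 for all genes. Those higher were Mmp2, Mmp23, Timp3, Adamts2, Adamts7, Adamts10, Adamts12, Adamts15, Adamtsl5, Loxl1, Loxl2 and Loxl3, with folds from 2.03-fold to 3.78-fold. Those lower were Adamts1, Adamts9, Adamts16, Adamts18, Mmp8, Mmp9, Mmp15 and Mmp19. Lower in the same comparison were 16 of 19 measured endothelial genes (481 CPM in sum in epithelium and 146 CPM in mesenchyme, where 6 were at 0, Cdh5 among them), 16 of 16 leukocyte genes (608 and 107 CPM) and 8 of 12 neural and neural crest genes (254 and 130.2 CPM), and their part in these 8 calls was not tested. The general mesenchymal genes had a median log2 ratio of 1.23 in this comparison, with 19 of 26 measured called higher. Set relative to that median, 0 members were higher and 12 lower, so no member exceeded their median ratio by 2-fold. Over all genes on that scale, 0.97% were higher and 66.2% lower.

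Among mutants the same comparison called 5 of 33 measured members higher in mesenchyme and 5 lower (15.2% each). All genes gave 5.42% and 12.9%, so the share lower was near that of all genes. Higher were Mmp2, Mmp28, Adamts3, Adamts10 and Adamtsl1, and lower were Mmp9, Adamts1, Adamts9, Adamts16 and Adamts19. Mmp2 and Adamts10 were higher, and Mmp9, Adamts1, Adamts9 and Adamts16 lower, in both fraction comparisons, which share no library. The median of the general mesenchymal genes was 0.72, below its value among controls.

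In mesenchyme at E12.5, few members were called between genotypes, though a larger share of them than of all genes. Of 33 measured, 2 were higher in the mutant (6.06%), Mmp28 and Adamts18, and 4 were lower (12.1%), Mmp9, Timp3, Adamts4 and Adamts15. The shares over all genes were 1.96% higher and 3.5% lower. The median log2 ratio was -0.40 for the members, -0.01 for all genes and -0.21 for general mesenchymal genes, and 9 of 33 ratios were above 1. Beside Timp3 and Adamts15, the summed level of 14 smooth muscle and pericyte genes was 640 CPM in control and 428 CPM in mutant mesenchyme, with none at 0, and its part in these ratios was not tested.

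In E12.5 epithelium, 0 of 35 measured members were higher in the mutant-labelled library and 6 were lower: Mmp8, Mmp9, Adamts3, Adamts6, Adamts16 and Adamtsl1. Over all genes 1.79% were higher and 3.21% lower. The members' median log2 ratio was 0.07.

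In E14.5 epithelium many members were higher in the mutant-labelled library, including gelatinase, membrane-type Mmp, Timp, procollagen-trimming and crosslinking genes. Of 31 measured members, 15 were higher in the mutant-labelled library (48.4%) and 2 lower (6.45%). All genes gave 9.64% higher and 6.4% lower, so the share lower was near that of all genes. Higher were Mmp2, Mmp11, Mmp14, Mmp16, Timp2, Timp3, Adamts2, Adamts5, Adamts8, Adamts10, Adamts12, Adamtsl5, Loxl1, Loxl2 and Loxl3, from 2.15-fold to 8.65-fold. Lower were Adamts9 and Adamtsl4. The median log2 ratio was 0.93 against -0.03 over all genes. In the same pair the general mesenchymal genes went in sum from 6463 to 13221 CPM, with a median log2 ratio of 1.27 and 21 of 26 measured called higher, and none of the 28 at 0 in the mutant-labelled library. Summed epithelial genes went from 8308 to 4618 CPM and acinar genes from 23584 to 5564 CPM. Smooth muscle and pericyte genes went from 239 to 992 CPM, with 10 of 12 measured higher and a median log2 ratio of 2.30. Neural and neural crest genes went from 224 to 391 CPM (8 of 12 higher), and 4 of 4 measured skeletal and cardiac muscle genes were higher. Relative to the median of the general mesenchymal genes, 1 member was higher, Adamts12, and 9 were lower, among them Adamts1, Adamts9, Adamts16 and Mmp15, while Mmp14, Timp2 and Adamts10 turned from higher to slightly lower. Over all genes on that scale, 1.35% were higher and 70.6% lower. The part of RNA from these cell types in the 15 calls was not tested.

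**Figure D3:**
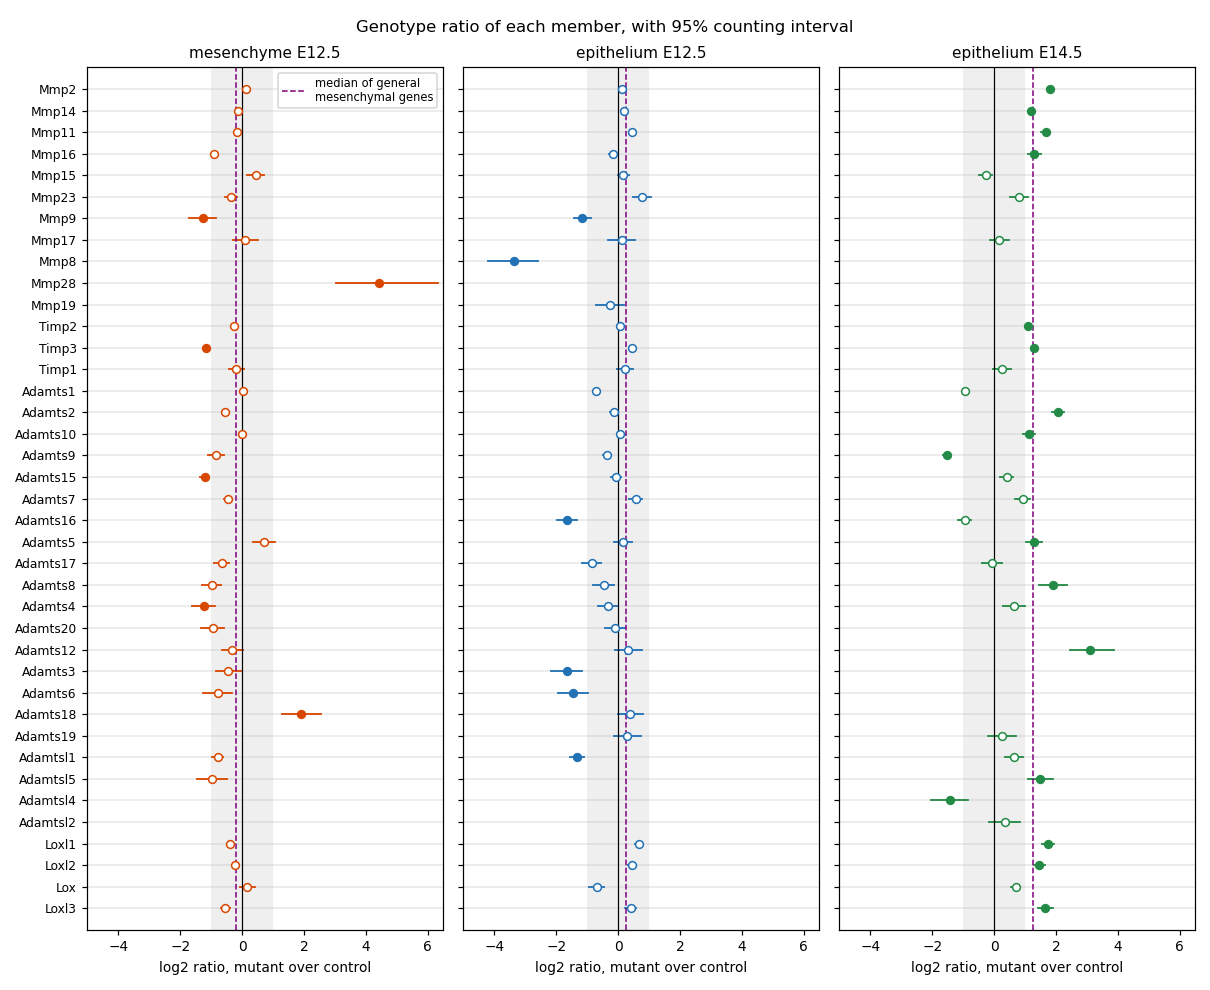
log2 ratio of mutant over control for each member in mesenchyme at E12.5 and in epithelium at E12.5 and E14.5, with 95% counting intervals, filled points where called and the grey band within 2-fold. In the right panel the dashed line is the median of general mesenchymal genes (1.27), Adamts12 lies far to its right, and Adamts1, Adamts9, Adamts16 and Adamtsl4 lie to the left of 0.

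As over all genes, most of the members higher in mesenchyme among E12.5 controls were also higher in the mutant-labelled E14.5 epithelium. These comparisons share no library. Of the 12 members higher in control mesenchyme, 9 were among the 15 higher at E14.5, so 75% of the first list and 60% of the second. Over all genes measured in both comparisons, 436 were higher in both, 63.6% of 686 and 42.8% of 1019. For the general mesenchymal genes it was 16 genes, 84.2% of 19 and 76.2% of 21. These shares are descriptions, and the difference between members and all genes was not tested. Across the 28 members measured in both, the log2 ratios gave a Pearson r of 0.67 and a Spearman rho of 0.65, a description across genes, which share libraries and scaling and are not replicates. Over all 11576 genes measured in both, r was 0.42 and rho 0.49. Adamts1, Adamts9, Adamts16 and Mmp15 were lower in mesenchyme, with E14.5 genotype log2 ratios of -0.92, -1.54, -0.95 and -0.27. Adamts15, Adamts7 and Mmp23 were higher in mesenchyme and fell short of the call at E14.5, with log2 ratios of 0.41, 0.93 and 0.79. Adamts5 and Lox were slightly lower in mesenchyme and had positive E14.5 ratios, 1.29 and 0.70.

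**Figure D4:**
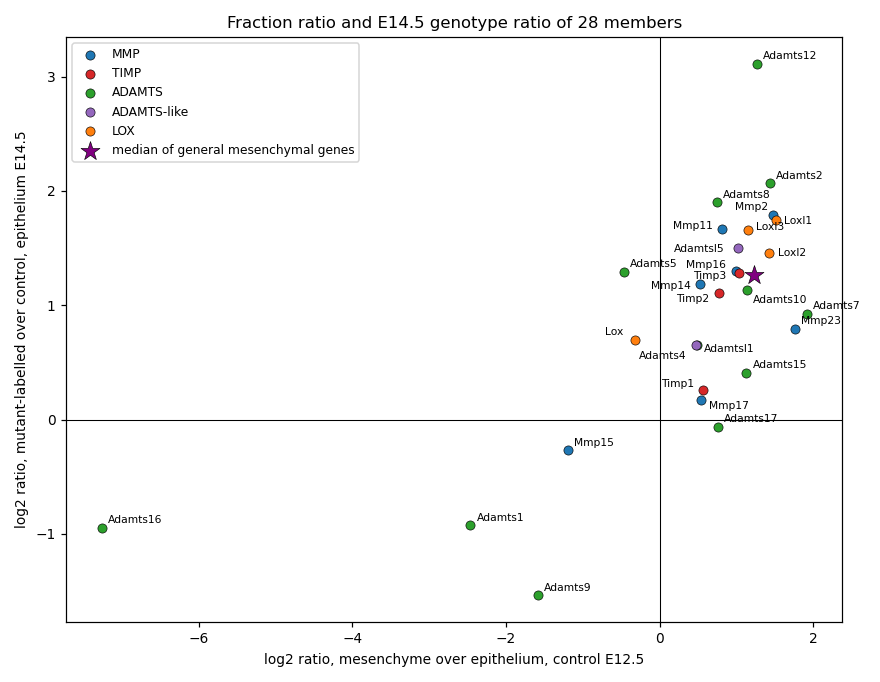
log2 ratio of mesenchyme over epithelium in E12.5 controls (horizontal) against the log2 ratio of mutant-labelled over control E14.5 epithelium (vertical) for the 28 members measured in both, coloured by family, with a star at the median of general mesenchymal genes (1.23 and 1.27). Mmp2, Mmp16, Timp3, Adamts10 and the 3 Loxl genes lie around the star, and Adamts1, Adamts9 and Adamts16 lie at the lower left.

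Between E12.5 and E14.5, many members were lower in the control epithelium of the later stage. Of 35 measured, 3 were higher at E14.5 (8.57%) and 15 lower (42.9%), against 6.53% and 11.2% of all genes. The share higher was thus near that of all genes. Higher were Lox, Mmp17 and Adamts9. Lower were Mmp8, Mmp9, Mmp11, Mmp16, Mmp19, Adamts2, Adamts3, Adamts6, Adamts8, Adamts10, Adamts18, Adamts20, Adamtsl1, Loxl1 and Loxl3. The median log2 ratio was -0.75 for the members, -0.03 for all genes and -0.42 for general mesenchymal genes, while acinar genes went from 2038 to 23584 CPM in sum. In mutant-labelled epithelium, 7 of 33 measured were higher (21.2%) and 3 lower (9.09%), against 6.27% and 5.89% of all genes. Lox, Mmp17, Adamts5, Adamts12, Adamts16, Adamtsl2 and Adamtsl5 were higher, and Mmp9, Adamts18 and Adamts20 lower. In the same pair 7 of 12 smooth muscle and pericyte genes were higher (533 to 992 CPM in sum), as were 9 of 17 leukocyte genes (395 to 703 CPM), while 6 of 8 neutrophil granule genes were lower (122 to 20.8 CPM). The general mesenchymal genes had a median log2 ratio of 0.55, and the part of these lists in the members' ratios was not tested. The control stage comparison shares a library with the E14.5 genotype comparison, so low values in the E14.5 control epithelium enter both.

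The 6 libraries form 3 pairs of control and mutant, so genotype, fraction and stage were also fitted together over all of them, with each pair as a block and 2 residual degrees of freedom (edgeR's quasi-likelihood test, Benjamini-Hochberg adjustment over 12785 genes). The pair is a block for the genotype term only. Fraction and stage are differences between pairs, and for them the control and mutant libraries of a pair stand in as replicates. In this fit the spread includes any difference of the genotype ratio between pairs. Between fractions, 4 of 39 members passed an adjusted p of 0.05, all lower in mesenchyme, against 8.3% of all genes lower and 1.07% higher. The members' share lower was thus near that of all genes. They were Adamts16 (adjusted p = 0.00379), Adamts1 (0.00488), Adamts9 (0.0161) and Mmp8 (0.0304). Each was lower in value in mesenchyme in both genotypes, Mmp8 with no read there. Mmp2 and Adamts10, higher in mesenchyme in both genotypes, had adjusted p-values of 0.0839 and 0.0763. For genotype, 0 of 39 members passed, where 0.00782% of all genes were higher and 0.0% lower. The smallest adjusted p among the members was 0.723, and 3 members, Adamts1, Adamts9 and Mmp8, had an unadjusted p under 0.05, as did 878 of all genes. For stage, 0 members passed, where 0.0156% of all genes were higher and 0.0% lower, and 7 members had an unadjusted p under 0.05, as did 2386 of all genes. Fits that left out 1 pair had 1 residual degree of freedom. Without the E14.5 pair, 11 of 37 members passed as higher and 7 as lower between fractions, against 8.63% and 13.7% of all genes. Without the mesenchymal pair, Lox passed as higher at E14.5, as did 1.18% of all genes. The genotype term is an effect common to the 3 pairs, so the fit does not test the ratio of any single pair.

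Other genes of matrix turnover were followed in 6 further lists with 96 genes: regulators of metalloproteinases with astacins, Adam proteases, plasminogen and serine proteases, cathepsins and cystatins, collagen modification, and hyaluronan and sulfate remodelling. At E14.5, 20 of 72 measured were higher in the mutant-labelled epithelium (27.8%, against 9.64% of all genes) and 3 lower (4.17% against 6.4%). The higher ones included Reck, a membrane-anchored inhibitor of metalloproteinases, at 20.9 and 69.3 CPM, 3.32-fold higher (interval 2.91 to 3.79). Htra1, a secreted serine protease, was 3.89-fold higher (interval 3.54 to 4.29), and Ctsk, a collagen-degrading cathepsin, was 2.88-fold higher (interval 2.51 to 3.32). Lower were Serpinf2, the plasmin inhibitor, and Hpn, an epithelial transmembrane serine protease, by 2.96-fold and 2.75-fold, and Qsox1, a secreted sulfhydryl oxidase, by 2.56-fold. Between E12.5 control fractions, 14 of 70 were higher and 14 lower in mesenchyme (20% each, against 7.0% and 13.6% of all genes), and the lower ones included St14, matriptase, at 131 CPM in epithelium and 0.201 CPM in mesenchyme. In mutant fractions the counts were 4 higher and 15 lower of 71 (5.63% and 21.1%, against 5.42% and 12.9%). In mutant mesenchyme 2 of 62 were higher, Cd44 and Ctsc, and 4 lower, Htra3, Prss23, Ctsk and Sulf1 (3.23% and 6.45%, against 1.96% and 3.5%). In E12.5 epithelium 1 of 73 was higher in the mutant-labelled library, Ctsk, and 0 lower (1.37% and 0%, against 1.79% and 3.21%). Across stages the counts were 5 higher and 12 lower of 70 in control epithelium (7.14% and 17.1%, against 6.53% and 11.2%) and 8 higher and 5 lower of 74 in mutant-labelled epithelium (10.8% and 6.76%, against 6.27% and 5.89%). The shares higher in mutant fractions and in control stages, and those lower in mutant-labelled stages, were thus near those of all genes.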

How the data were processed

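For each of 6 libraries the authors deposited raw counts per gene symbol, whole numbers with duplicate reads removed, per the file names. mm10, Cufflinks 2.2.1 and Cuffdiff 2.2.1 are named in the submitters' processing notes. No aligner, counter, annotation or strand setting is given in the sources used here. The summary lines that close each table stayed out of the totals: 4.69% to 8.84% of reads lay on no gene, 1.53% to 1.72% were ambiguous and 13.7% to 20.1% aligned more than once.

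Control and mutant totals on genes were 20276045 and 14921268 in E12.5 epithelium, 14829378 and 15593756 in mesenchyme, and 15513358 and 14032569 in E14.5 epithelium. From these counts, CPM were computed with TMM factors of 0.941 to 1.05 over all 6 libraries (edgeR 4.0.16, R 4.3.3). Exact conditional binomial (Clopper-Pearson) intervals of each ratio used scipy 1.17.1 with numpy 2.4.6 and pandas 2.3.3 in Python 3.11.15, and plots used matplotlib 3.10.9. Where a library had no read, 3 counts in it stand as a floor and the fold is a lower bound. No single ratio could be tested with 1 library per group. After the data were seen, edgeR's quasi-likelihood test was added for genotype, fraction and stage over all 6 libraries, for genes at 5 CPM in any library. In a simulation of its genotype term over 12570 genes, 99% of genes shifted by a log2 of 2 and 100% of those shifted by -3 were called, and 0.0404% of the rest. The simulated counts had an assumed spread, alike for all genes, and the same genotype shift in all 3 pairs. These shares therefore do not hold for genes whose genotype ratio differs between pairs. Gene positions and exon lengths came from GENCODE M21 (GRCm38).

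Members were set by symbol. The members and the gene lists were chosen with earlier results of these data known. Members at 5 CPM in any library could be named, and from the other lists up to 3 called genes per list and comparison, those with the largest ratio by the bound nearer to 1. The 6 promoters were chosen after their values were seen. In a simulation of the E12.5 epithelial genotype pair over 11779 genes, calls were made for 100% of genes shifted by a log2 of 1.5, for 100% shifted by -3 and for 0% of the rest. The simulated counts held Poisson counting error only, with no variation between libraries or embryos. The 0% is therefore not the error rate of calls from libraries without replicates. Results were recomputed with DESeq2 1.42.0 size factors, with plain CPM, with filters at 1 CPM, 20 CPM and none, at 1.5-fold, without the interval condition, and relative to general mesenchymal or epithelial genes. The further altered gene of the mutant genotype is not reported here.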

Additional observations from a re-analysis of the deposited data

Results flagged for a closer look

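Timp3 stood out because its genotype ratio went in opposite directions in 2 cell fractions. In E12.5 mesenchyme its log2 ratio of mutant over control was -1.16, and in E14.5 epithelium it was 1.28, a difference of -2.45 (mesenchyme minus epithelium). The fractions differ in stage as well as in cell type, each ratio rests on 1 pair of libraries, and the difference was not tested. Relative to the median of the general mesenchymal genes, the E14.5 ratio of Timp3 was 0.02 on the log2 scale and the mesenchymal one was -0.96. Exons of Syn3 on the other strand overlap Timp3, and the part of Syn3 reads in these ratios was not tested.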

How the results depend on the processing

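DESeq2 size factors and plain CPM moved none of 15 counts and summaries beyond 1.5 times, and dropping the interval condition moved none of 14. The correlation among the 15 cannot change with a scaling factor while the same members are measured. Without the interval condition the calls over all genes were also unchanged, since a 2-fold ratio at 5 CPM already gave an interval without 1. That setting was therefore no check of the calls. Plain CPM ended the calls of Adamtsl5 and Timp3 as higher in control mesenchyme and of Adamts9 as higher at E14.5 in controls, and both scalings ended that of Adamtsl1 as higher in mutant mesenchyme. Counts of called members are given as higher and lower for the settings that moved them, with the share over all genes in brackets. Between control fractions, lower counts were 13 of 43 measured at 1 CPM (18.6%), 5 of 23 at 20 CPM (9.17%) and 14 of 45 with no filter (19.2%). Between mutant fractions, higher counts at the same filters were 8 of 41 (7.05%), 3 of 18 (4.10%) and 8 of 46 (7.91%). Lower counts were 2 of 18 at 20 CPM (7.80%) and 9 of 46 with no filter (19.2%). For the genotype in mesenchyme at 20 CPM, 0 of 19 were higher (0.83%) and 2 lower (1.43%). For the genotype in E12.5 epithelium, lower counts were 10 of 42 (6.54%), 3 of 20 (1.35%) and 10 of 47 (7.95%). With no filter, 1 of 47 was higher (6.63%). For the genotype at E14.5, 1 of 19 was lower at 20 CPM (4.92%). Across stages, control epithelium gave 5 higher at 1 CPM, 6 with no filter and 8 lower at 20 CPM, and mutant-labelled epithelium gave 12, 2 and 13 higher, with 0 lower at 20 CPM. At 1.5-fold, mutant fractions gave 11 of 33 higher (13.9%) and mutant-labelled stages 12 of 33 higher (12.9%). The genotype gave 12 of 33 lower in mesenchyme (9.05%), 2 of 35 higher in E12.5 epithelium (6.01%) and 4 of 31 lower at E14.5 (14.9%). The correlation of fraction and genotype ratios was 0.55, 0.78 and 0.53 with filters at 1 CPM, 20 CPM and none.

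Relative to general mesenchymal genes, with the share over all genes in brackets, control fractions gave 0 higher (0.97%). Mutant fractions gave 1 higher (1.48%) and 9 lower (28.1%), and the genotype in mesenchyme 2 lower (2.41%). The genotype at E14.5 gave 1 higher (1.35%) and 9 lower (70.6%), and mutant-labelled stages 3 higher (3.13%). The log2 ratios that reversed were, between control fractions, Adamts10 -0.090, Adamts15 -0.10, Adamtsl5 -0.21, Loxl3 -0.082 and Timp3 -0.20, and at E14.5, Adamts10 -0.13, Mmp14 -0.082 and Timp2 -0.16. Relative to general epithelial genes, whose summed level is far lower in mesenchyme, both fraction comparisons gave 32 higher and 0 lower. Over all genes the shares were 96.7% higher and 0.56% lower between control fractions, and 97.1% and 0.41% between mutant fractions. Reversed between control fractions were Adamts1 4.02, Adamts18 4.998, Adamts9 4.90, Mmp15 5.29, Mmp19 1.80, Mmp8 0.84 and Mmp9 5.43, and between mutant fractions Adamts1 5.09, Adamts16 2.13, Adamts19 1.998, Adamts9 4.73 and Mmp9 5.64. On that reference the genotype in mesenchyme gave 0 of 33 lower, against 1.99% of all genes. On the same reference the genotype at E14.5 gave 25 of 31 higher and 0 lower, against 40.6% and 1.3% of all genes. Control stages gave 0 of 35 higher and 25 lower on it, against 2.002% and 44.8% of all genes. The fit with the pair as a replicate block, added after the data were seen, gave 0 members for genotype with each pair left out in turn. For fractions it gave 0 higher and 4 of 39 lower, near the shares of all genes (1.07% and 8.3%). Without the E14.5 pair it gave 11 higher and 7 lower, against 8.63% and 13.7% of all genes. For stages it gave 0 higher, and 1 higher, Lox, without the mesenchymal pair, where 1.18% of all genes were higher. Intervals were wide where a library had few counts, as for Mmp28, Adamts12 and Adamts16.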

Other observations

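At low level, 2 members under 5 CPM in all libraries were spread unevenly over them and were picked out after their values were seen. Mmp24, a membrane-type metalloproteinase, had 61 and 0 counts in E12.5 epithelium, 0 and 6 in mesenchyme and 50 and 45 in E14.5 epithelium, control first. It was thus present in 3 of 4 epithelial libraries at 2.87 to 3.42 CPM and had no read in the mutant-labelled E12.5 epithelium, where the floor of 3 counts is 0.197 CPM. Exons of BC029722 on the other strand cover 13.6% of its exon length. Adamts14, which trims procollagens, had 1 count in the same mutant-labelled E12.5 library against 43 in its control, and between 2.01 and 3.41 CPM in the other 4.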
